A study of Rattus norvegicus with 21 samples.

Results

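The liver response to the highest dose of piperonyl butoxide (PBO, a methylenedioxyphenyl compound used as an insecticide synergist) was set against the response to the highest dose of dammar resin (DAM, a plant resin). For every gene the change at PBO 1500 mg/kg against its control was taken, the change at DAM 2000 mg/kg against its own control was subtracted, and genes with shared and with different changes were described. Groups were taken from the sample titles, and 12 of the 21 arrays of the series belonged to the 4 groups compared, 3 animals each with 1 array per animal. The PBO 1500 mg/kg group held male Sprague-Dawley rats dosed by mouth for 7 days, and its control held male Sprague-Dawley rats given 0.5% methyl cellulose by mouth for 7 days. The DAM 2000 mg/kg group held male Fischer 344 (F344) rats on a diet with 5% DAM for 28 days, and its control held male F344 rats on basal diet for 28 days. PBO livers went into RNAlater, and DAM livers were snap frozen with liquid nitrogen. Compound, strain, route, duration, dose and preservation all change together between the studies, so their parts in any difference cannot be told apart. The labels call the animals of a group biological replicates, so p-values measure the spread between animals. That spread was pooled over all groups of a fit, including the doses not compared. Ages were not given in the sources used here.

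Foreign compounds reach the liver genome mainly through a few sensors. The nuclear receptors CAR and PXR raise cytochromes P450 of the Cyp2b and Cyp3a families, conjugating enzymes and exporters. The aryl hydrocarbon receptor (AhR) raises Cyp1 genes, and NRF2 raises glutathione and redox enzymes. PPARalpha, which in rats responds to fatty acids and to peroxisome proliferators, raises fatty acid oxidation genes. Sterol and fatty acid synthesis follow the SREBP factors, and male rat liver also expresses a set of genes under the pulsatile growth hormone pattern of males.

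All values are deposited microarray signals, with a trimmed mean of 500.2 to 500.3 on each array. Median signals were 94.3 to 106 at PBO 1500 mg/kg, 107 to 114 in the PBO control, 76.4 to 79.3 at DAM 2000 mg/kg and 78.8 to 86.2 in the DAM control. Changes are differences of mean log2(signal + 16), a scale on which the changes of dim genes come out too small, and stand with the standard error (SE) of the fit. The spread was unequal between the studies. PBO 1500 replicate 3 had a root mean square deviation of 0.497 from its group mean, against 0.358 and 0.370 for the other two arrays at that dose and 0.214 to 0.233 for the arrays of the DAM groups compared. The ratio of 3' to 5' signal of beta-actin was 2.38 to 2.78 at PBO 1500 mg/kg and 2.85 to 3.16 in its control, against 7.26 to 9.71 at DAM 2000 mg/kg and 7.08 to 9.81 in its control. The change of that ratio did not differ detectably between the studies (exact permutation test within studies, two-sided, p = 0.37 over 400 arrangements). The same ratio of GAPDH changed by -0.07 in the PBO study and 0.10 in the DAM study on the log2 scale, and the difference had p = 0.055 by that exact test. With 3 animals per group, precision is limited by the number of arrays, and depth in the sense of counts does not exist.

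The liver label was checked against 9 measured hepatocyte markers of 10, of which 4 fell at PBO 1500 mg/kg, while 2 rose and 2 fell at DAM 2000 mg/kg. Albumin (Alb) had signals of 52466, 61872 and 54397 at PBO 1500 mg/kg, 44668, 51309 and 68712 in the PBO control, 43158, 36759.7 and 35161 at DAM 2000 mg/kg and 27024, 39249 and 29607 in the DAM control, and both pairs of groups overlapped. Counts of these and the following cell markers are to be read beside the shares of all probe sets tested. These were 8.07% higher and 9.3% lower at PBO 1500 mg/kg, and 6.2% higher and 6.12% lower at DAM 2000 mg/kg. For the difference they were 2.14% toward PBO and 2.77% toward DAM. All 4 measured erythroid markers fell at PBO 1500 mg/kg and none passed at DAM 2000 mg/kg, and the difference of effects passed for all 4, with a median of -1.88. Their summed signal was 4375 to 10036 at PBO 1500 mg/kg, 21717 to 23029 in the PBO control, 10120.1 to 21922 at DAM 2000 mg/kg and 13019.5 to 17693 in the DAM control. Of 11 measured macrophage markers 3 fell in the PBO study, and in the DAM study 2 fell and 1 rose. Their median change was -1.06 in the PBO study (-0.46 without PBO 1500 replicate 3) and -0.29 in the DAM study. Their summed signals were 11775 to 27957 at PBO 1500 mg/kg and 28200.4 to 29942 in its control, and 28558 to 29162 at DAM 2000 mg/kg and 28573 to 30073 in its control. Of 7 measured T and NK cell markers 4 fell in the PBO study and none passed in the DAM study, with summed signals of 530.2 to 859.6 at PBO 1500 mg/kg, 1374 to 1622 in its control, 1169.7 to 1466 at DAM 2000 mg/kg and 1573 to 2008 in its control. Of 11 measured stellate cell and fibroblast markers 4 fell at PBO 1500 mg/kg and 3 at DAM 2000 mg/kg, and the difference passed toward DAM for Reln and Lox. Without PBO 1500 replicate 3 it passed toward DAM for Lox alone and toward PBO for 1 marker. Summed signals of these 11 markers were 4656 to 10453 at PBO 1500 mg/kg and 11102 to 18538 in its control. They were 9691 to 9882 at DAM 2000 mg/kg and 11368 to 13064 in its control. The median change of the markers against the control mean was 0.24, -0.81 and -0.63 in the PBO 1500 animals. It was -0.30, -0.27 and -0.41 in the DAM 2000 animals. The part of these cells in the other results was not tested, and in bulk liver fewer cells of a type and less RNA per cell cannot be told apart.

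Gsta3, Sult2a2 and Cyp1a1 were among the genes that rose in both studies, and Scd, Spin2b and Fabp5 among those that fell in both. Most of the genes that differed had the larger change in the PBO study. Of 18625 probe sets tested, 1503 rose at PBO 1500 mg/kg (8.07% of those tested) and 1733 fell (9.3%), and 1154 rose at DAM 2000 mg/kg (6.2%) and 1139 fell (6.12%), at an adjusted p of 0.05 in limma with Benjamini-Hochberg adjustment. Changes in the same direction in both studies were called for 1025 probe sets (5.5%), 546 up and 479 down, which is 31.7% of the PBO calls and 44.7% of the DAM calls. Opposite changes were called for 26 (0.14%). The difference of effects itself passed for 914 probe sets. In 399 of them the PBO change was the more positive (2.14%) and in 515 the DAM change (2.77%), and 814 of the 914 had the larger absolute change in the PBO study and 100 in the DAM study. Over all 18625 probe sets tested the median absolute change was 0.335 in the PBO study and 0.202 in the DAM study. The median SEs were 0.240 and 0.159. Both the absolute changes and the SEs were thus larger in the PBO study. The part of the larger SEs in the larger changes was not tested. Across the tested probe sets, which are not independent, the effects had a Pearson correlation of 0.46 and a Spearman correlation of 0.40, as a description.

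Calling a gene in both studies did not make its change the same size. Of the 1025 shared probe sets the difference passed for 186, 184 of them with the larger change in the PBO study, and for 554 the 95% interval of the difference lay within 1 log2 unit of 0. The median ratio of the DAM change to the PBO change over the shared probe sets was 0.584. With the larger median SE of the PBO study, a call there tended to need a larger change. The selection of shared probe sets can lower this ratio, and its part was not tested. Scaling the arrays to a common median moved the share of higher calls to 62.8% in the PBO study and 73.9% in the DAM study, against 46.4% and 50.3% as deposited, and small changes therefore have no settled direction. The count of differences was 327 when only the 12 arrays compared entered the fit. Leaving out single arrays moved it as well. It was 500 without DAM 2000 replicate 1, 586 without DAM 2000 replicate 3, 608, 550 and 552 without DAM control replicate 1, 2 and 3, and 1425 without PBO 1500 replicate 2. The PBO calls numbered 2148 and 2046 without PBO control replicate 1 and 3, and the DAM calls 1502 without DAM 2000 replicate 2. The opposite calls numbered 15 and 16 without PBO control replicate 1 and 3, and 17 without DAM 2000 replicate 1.

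**Figure D1:**
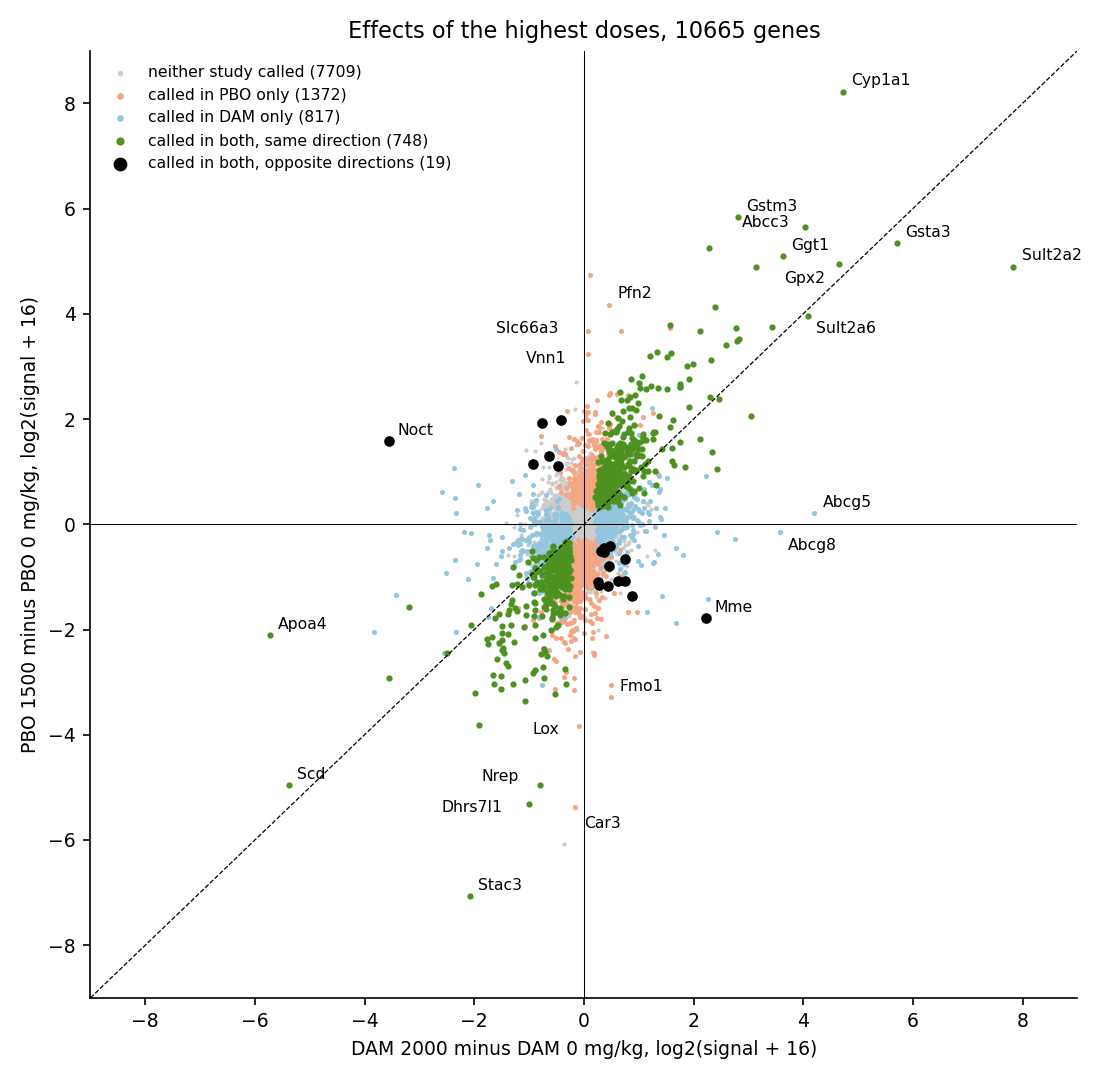
Change at DAM 2000 mg/kg (x axis) and at PBO 1500 mg/kg (y axis), each against its own control in log2(signal + 16), for 10665 genes with 1 probe set each, coloured by the calls in the 2 studies; the dashed line marks equal effects. The 748 genes changed the same way lie in the upper right and lower left, the 19 changed in opposite ways in the upper left and lower right, and Pfn2, Slc66a3, Vnn1, Lox and Car3 lie close to the vertical axis.

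The shared rises named were those of Gsta3, Sult2a2, Cyp1a1, Gpx2, Abcc3, Sult2a6, Ggt1 and Aldh1a1. Gsta3, an alpha-class glutathione S-transferase, had signals of 11287, 13221 and 9902 at PBO 1500 mg/kg, against 298, 257 and 244 in the PBO control, and of 4333, 5193 and 3614 at DAM 2000 mg/kg, against 42.9, 66.4 and 103 in the DAM control. Dosed and control animals were fully apart in both studies, with changes of 5.34 ± 0.17 and 5.71 ± 0.22 (SE, n = 3 per group) and a difference of -0.37 (95% interval -0.9996 to 0.27). Gpx2, a glutathione peroxidase, had 2938, 4679 and 4861 at PBO 1500 mg/kg and 64.3, 155 and 152 in the PBO control, and 1594, 2254 and 2183 at DAM 2000 mg/kg and 71.2, 42.1 and 85.4 in the DAM control. Its changes of 4.95 ± 0.44 and 4.64 ± 0.21 left a difference of 0.30 (95% interval -0.85 to 1.45). The retinal dehydrogenase Aldh1a1 rose by 3.76 ± 0.16 in the PBO study and 3.44 ± 0.20 in the DAM study, and the 95% interval of its difference, -0.28 to 0.92, lay within 1 log2 unit of 0. Sult2a6 and Sult2a2, sulfotransferases of hydroxysteroids and bile acids, were the other large rises without a called difference. Sult2a6 rose by 3.95 ± 0.38 and 4.08 ± 0.12, with an interval of the difference of -1.08 to 0.83.

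Sult2a2 varied between the animals of the PBO study. It had 6030.3, 329.7 and 2129 at PBO 1500 mg/kg and 42.9, 35.9 and 39.4 in the PBO control, against 12382, 8437 and 9201 at DAM 2000 mg/kg and 39.9, 5.18 and 53.3 in the DAM control. Its rises of 4.90 ± 1.16 and 7.83 ± 0.35 gave a difference of -2.93 ± 1.38 that did not pass (adjusted p = 0.25). Probe sets of gene families such as these can take signal from close relatives, and the share of each member is then uncertain.

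For 3 shared rises the rise was larger in the PBO study. Ggt1, a gamma-glutamyl transferase of glutathione breakdown that also marks altered liver foci in rats, had 4399, 5018 and 3367 at PBO 1500 mg/kg, against 86.1, 92.8 and 154 in the PBO control, and 962, 1119 and 1218 at DAM 2000 mg/kg, against 73.1, 83.8 and 64.7 in the DAM control. It rose by 5.09 ± 0.22 and 3.63 ± 0.14, with a difference of 1.46 ± 0.28 (adjusted p = 0.00501). Abcc3, an exporter of conjugates and bile acids into blood, rose by 5.65 ± 0.29 and 4.03 ± 0.21. Its difference of 1.62 ± 0.39 (adjusted p = 0.0211) was lost without PBO control replicate 1 or 2, DAM 2000 replicate 1 or 3, or DAM control replicate 3 (adjusted p of 0.0517 to 0.0605). Cyp1a1, the P450 most closely tied to AhR, had 12105, 3668 and 12154 at PBO 1500 mg/kg and 3.96, 20.5 and 12 in the PBO control, and 788, 1511 and 1964 at DAM 2000 mg/kg and 14.8, 58.6 and 41.1 in the DAM control. All PBO 1500 animals lay above all DAM 2000 animals, and every control lay at 58.6 or below. Cyp1a1 rose by 8.22 ± 0.62 and 4.73 ± 0.55. The call of its difference, 3.50 ± 0.94 (adjusted p = 0.037), was lost without PBO 1500 replicate 1 or 3, PBO control replicate 1 or 3, DAM 2000 replicate 1 or 2, or DAM control replicate 2 or 3 (adjusted p of 0.0564 to 0.107).

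**Figure D2:**
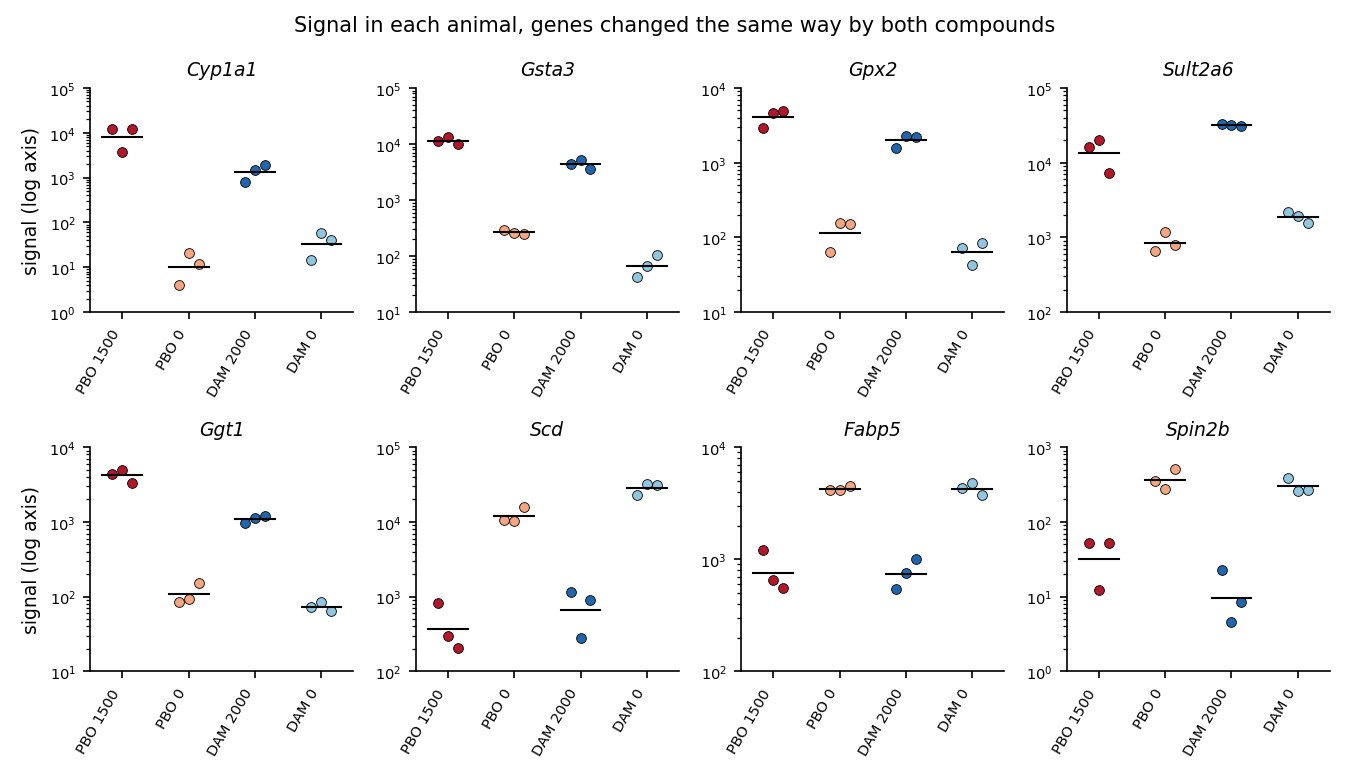
Deposited signal (log axis) of 8 genes in each animal of the 4 groups compared; horizontal bars are the means of the log values. Within each study the dosed animals lie apart from their controls for all 8 genes, above for the first 5 and below for Scd, Fabp5 and Spin2b.

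Gene starts of these genes were read from RefSeq (GRCr8), since Gsta3 and Gpx2 rose together in both studies. Promoter windows of 250 bases before to 50 after the start were found for 26 of the 33 genes named for the largest differences or shared changes. Both windows printed here hold the core NRF2 motif TGACNNNGC, searched on both strands and shown in capitals, which 12.1% of all 33469 RefSeq windows hold. Among the named genes with a window, 2 of 6 shared rises and 2 of 6 shared falls (Scd and Slc6a6) hold it, and Sult2a2, Sult2a6, Ggt1 and Aldh1a1 are not among them. A match describes the letters and is not evidence of binding. The Gsta3 window is chr9:31154739-31155038 on the plus strand, 1 of 2 windows of that gene (the other holds the core AhR motif GCGTG, as 29.7% of all windows do, and not TGACNNNGC), with the motif starting 17 bases before the gene's start. The Gpx2 window is chr6:101229984-101230283 on the minus strand, with the motif on the other strand, 13 bases before the start.
Gsta3: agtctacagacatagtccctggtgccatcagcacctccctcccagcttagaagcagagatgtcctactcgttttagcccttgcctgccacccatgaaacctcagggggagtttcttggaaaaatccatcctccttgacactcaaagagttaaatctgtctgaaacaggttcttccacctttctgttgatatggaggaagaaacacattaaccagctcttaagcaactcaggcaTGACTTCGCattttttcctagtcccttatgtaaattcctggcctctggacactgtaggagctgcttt
Gpx2: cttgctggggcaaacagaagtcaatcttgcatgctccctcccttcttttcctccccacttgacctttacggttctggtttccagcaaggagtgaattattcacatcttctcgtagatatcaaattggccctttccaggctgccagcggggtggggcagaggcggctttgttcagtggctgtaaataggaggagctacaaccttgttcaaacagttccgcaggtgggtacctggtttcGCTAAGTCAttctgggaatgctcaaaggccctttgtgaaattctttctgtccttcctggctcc

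The shared falls named were those of Scd, Spin2b, Fabp5, Apoa4, Stac3, Tsc22d1, Mtmr7 and Slc6a6. Scd, the stearoyl-CoA desaturase, had 834, 298 and 206 at PBO 1500 mg/kg, against 10752, 10273 and 16046 in the PBO control, and 1154, 283 and 913 at DAM 2000 mg/kg, against 23242, 32042 and 31514 in the DAM control. It changed by -4.96 ± 0.62 and -5.38 ± 0.46, and the 95% interval of the difference was wide, -1.42 to 2.27. The fatty acid binding protein Fabp5 changed by -2.46 ± 0.24 and -2.49 ± 0.19, with an interval of the difference of -0.67 to 0.75, within 1 log2 unit of 0. Both groups of dosed animals lay apart from their controls. The spindlin family gene Spin2b fell with changes of -2.91 ± 0.55 and -3.56 ± 0.32, and Mtmr7, a phosphatase of the myotubularin family, with -1.92 ± 0.35 and -2.06 ± 0.17. The differences of both missed the threshold (adjusted p = 0.664 and 0.899).

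Apoa4 and Stac3 fell in both studies by different amounts. Apoa4, an apolipoprotein of triglyceride transport, had 3104, 4319 and 11682 at PBO 1500 mg/kg, against 21419.8, 25254 and 23419.6 in the PBO control, and 228, 110.2 and 178 at DAM 2000 mg/kg, against 8589, 8844 and 11614 in the DAM control. The fall was larger in the DAM study, -5.73 ± 0.25 against -2.11 ± 0.40 in the PBO study, and the difference was 3.62 ± 0.54 (adjusted p = 0.000652). Stac3, known from muscle excitation, had 154, 88.5 and 45.3 at PBO 1500 mg/kg, against 12954, 14503 and 13784 in the PBO control, and 5233, 3314 and 5376 at DAM 2000 mg/kg, against 17233, 20597 and 20252 in the DAM control. It fell in both studies with changes of -7.06 ± 0.43 and -2.09 ± 0.17, and the difference was -4.98 ± 0.52 (adjusted p = 1.34e-05). The taurine transporter Slc6a6 fell with changes of -3.82 ± 0.56 and -1.91 ± 0.18, and Tsc22d1, a leucine zipper regulator, with -3.21 ± 0.35 and -1.98 ± 0.12. Their differences, -1.91 and -1.23, did not pass (adjusted p = 0.115 and 0.104). They passed without PBO 1500 replicate 3 for Slc6a6 (adjusted p = 0.00746) and without PBO 1500 replicate 2 for Tsc22d1 (adjusted p = 0.0186). The second, dimmer probe set of Tsc22d1 had changes of -0.77 in the PBO study and 0.03 in the DAM study.

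Among the largest differences toward PBO, Pfn2, Slc66a3, Vnn1 and C1h11orf24 rose at PBO 1500 mg/kg with no call at DAM 2000 mg/kg. Pfn2, the actin-binding profilin 2, had 1271, 1116 and 1527 at PBO 1500 mg/kg, against 68, 46.6 and 56.8 in the PBO control, and 66.1, 83.7 and 101 at DAM 2000 mg/kg, against 55.6, 52.6 and 59.6 in the DAM control. The dosed animals stood far above all the others in the PBO study, and in the DAM study they lay just above their controls. Its changes were 4.17 ± 0.23 and 0.46 ± 0.23, with a difference of 3.72 ± 0.31 (adjusted p = 1.24e-06). Slc66a3, of solute carrier family 66, had 1344, 1138 and 1227 at PBO 1500 mg/kg, against 74.9, 105 and 69.9 in the PBO control, and 97.4, 74.5 and 91 at DAM 2000 mg/kg, against 79.6, 66.1 and 104 in the DAM control. The DAM groups overlapped, and the difference was 3.60 ± 0.35 (adjusted p = 6.02e-06). Vnn1, a pantetheinase under PPARalpha, had 6702, 5472 and 8176 at PBO 1500 mg/kg, against 595, 743 and 777 in the PBO control, and 854, 1422 and 1466 at DAM 2000 mg/kg, against 1004, 1554 and 973 in the DAM control. Its DAM groups overlapped as well, and the difference was 3.15 ± 0.32 (adjusted p = 1.15e-05). C1h11orf24 changed by 3.67 ± 0.53 and 0.68 ± 0.33, with a difference of 2.996 ± 0.67 (adjusted p = 0.0129).

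Gstm3, a mu-class glutathione S-transferase, rose in both studies and differed in size. It had 6075, 4441 and 13600.3 at PBO 1500 mg/kg, against 112, 127 and 90.7 in the PBO control, and 859, 1001 and 868 at DAM 2000 mg/kg, against 109, 170.2 and 83.9 in the DAM control. The controls of the studies overlapped, and the rises of 5.84 ± 0.43 and 2.80 ± 0.22 differed by 3.04 ± 0.54 (adjusted p = 0.00299).

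Noct, Per1 and Nr0b2 had called differences in which the DAM change, a fall, was the larger of the 2 changes. Noct, the rhythmically expressed nocturnin, had 459.9, 196 and 429.8 at PBO 1500 mg/kg, against 74, 256 and 53.7 in the PBO control, and 154, 136 and 73.4 at DAM 2000 mg/kg, against 1684, 1308 and 1626 in the DAM control. All F344 controls lay above every Sprague-Dawley animal of the groups compared. The change at DAM 2000 mg/kg was -3.55 ± 0.28 (adjusted p = 6.15e-06), that at PBO 1500 mg/kg was 1.57 ± 0.46 with overlapping groups, and the difference was 5.12 ± 0.59, the largest toward PBO. The call of the PBO change (adjusted p = 0.0327) was lost without PBO 1500 replicate 1 or 3 or PBO control replicate 1 or 3 (adjusted p of 0.0769 to 0.133). Per1, of the circadian clock, had 32.3, 125 and 288 at PBO 1500 mg/kg, against 33.4, 39.9 and 66.8 in the PBO control, and 38.6, 41.8 and 38.1 at DAM 2000 mg/kg, against 302, 146 and 436 in the DAM control. Its difference, 3.43 ± 0.79 (adjusted p = 0.0166), was lost without DAM control replicate 3 (adjusted p = 0.053). Nr0b2, the bile acid repressor SHP, fell with a change of -2.58 ± 0.19 in the DAM study and had overlapping groups in the PBO study (0.61 ± 0.58, adjusted p = 0.521). Its difference was 3.19 ± 0.69 (adjusted p = 0.0109).

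The largest differences toward DAM were mostly falls at PBO 1500 mg/kg. Car3, a carbonic anhydrase among the most abundant transcripts of male rat liver, had 1428, 3606 and 201 at PBO 1500 mg/kg, against 40227, 43061 and 46669 in the PBO control, and 41196, 34614 and 35930.3 at DAM 2000 mg/kg, against 36813, 47539 and 40458 in the DAM control. On this probe set the fall in the PBO study (-5.37 ± 0.70, adjusted p = 0.000264) had no called counterpart in the DAM study (-0.16 ± 0.09, adjusted p = 0.317). The difference was -5.22 ± 0.81 (adjusted p = 0.00109). The second probe set of Car3 was lower in both studies, with -5.75 in the PBO study and -1.23 in the DAM study. Its difference was -4.52 (adjusted p = 0.00112). Nrep, a neuronal regeneration related protein, had 577, 586 and 218 at PBO 1500 mg/kg, against 11197, 13761 and 16076 in the PBO control, and 7923, 5405 and 7881 at DAM 2000 mg/kg, against 10643, 12399 and 13404 in the DAM control. It fell in both studies with changes of -4.95 ± 0.31 and -0.80 ± 0.13, with a difference of -4.16 ± 0.38 (adjusted p = 4.51e-06). Dhrs7l1, of the short-chain dehydrogenase family, fell with changes of -5.31 ± 0.90 and -1.003 ± 0.12. The difference of -4.30 ± 1.04 (adjusted p = 0.0209) was lost without PBO control replicate 2 or DAM 2000 replicate 3 (adjusted p of 0.0521 to 0.0536).

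Fmo1, a flavin monooxygenase, had 521, 1853 and 124 at PBO 1500 mg/kg, against 4358, 6249 and 4704 in the PBO control, and 5758, 5033 and 4703 at DAM 2000 mg/kg, against 3789, 2734 and 4668 in the DAM control. The fall in the PBO study was -3.28 ± 0.63, the DAM value of 0.50 ± 0.15 did not pass (adjusted p = 0.0537), and the difference was -3.78 ± 0.74 (adjusted p = 0.00559). Lox, the collagen cross-linking lysyl oxidase and 1 of the fibroblast markers above, had 213, 64.7 and 140.2 at PBO 1500 mg/kg, against 2038, 665 and 5914 in the PBO control, and 63.3, 76.6 and 93.3 at DAM 2000 mg/kg, against 68.2, 72 and 117 in the DAM control. Every F344 animal lay below every Sprague-Dawley control, near the array medians given above. The difference was -3.73 ± 0.73 (adjusted p = 0.00594).

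For Abcg5, Abcg8 and Cish the called change was a rise at DAM 2000 mg/kg. Abcg5, which with Abcg8 forms the exporter of cholesterol and plant sterols into bile, had 629, 583 and 2084 at PBO 1500 mg/kg, against 650.4, 798 and 958 in the PBO control, and 922, 1694 and 2906 at DAM 2000 mg/kg, against 100.2, 76 and 54.7 in the DAM control. The DAM controls were the lowest of the 4 groups without overlap, and the DAM 2000 animals overlapped the range of the PBO study. Abcg8 had 95.2, 100.05 and 799.6 at PBO 1500 mg/kg, against 168, 272 and 249.8 in the PBO control, and 265, 399.8 and 744 at DAM 2000 mg/kg, against 10.5, 36.6 and 22 in the DAM control. Its DAM controls were again the lowest group. Both rose in the DAM study, by 4.20 ± 0.35 and 3.57 ± 0.34, and overlapped with controls in the PBO study, with changes of 0.21 ± 0.44 and -0.14 ± 0.65. PBO 1500 replicate 3 was the high animal for both genes, and the other two lay below every PBO control. Without it the PBO changes were -0.38 (adjusted p = 0.493) for Abcg5 and -1.09 (adjusted p = 0.0977) for Abcg8. The differences were -3.99 ± 0.64 (adjusted p = 0.00138) and -3.71 ± 0.82 (adjusted p = 0.0127).

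Abcg5 and Abcg8 lie head to head on chromosome 6, and the promoter windows RefSeq gives them overlap almost fully, on opposite strands, so the members of this pair share the sequence printed here. The Abcg5 window is chr6:15717686-15717985 (GRCr8) on the plus strand, and the capitals mark the TGACNNNGC motif, which starts 28 bases before the start of Abcg5.
Abcg5: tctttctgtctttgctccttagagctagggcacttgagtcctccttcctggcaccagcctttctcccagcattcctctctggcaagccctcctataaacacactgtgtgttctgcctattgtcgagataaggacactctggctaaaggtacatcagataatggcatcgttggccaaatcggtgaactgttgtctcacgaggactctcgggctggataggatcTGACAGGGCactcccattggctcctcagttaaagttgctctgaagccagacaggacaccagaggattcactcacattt

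Cish, a feedback inhibitor of growth hormone signalling, had 572, 359 and 27.5 at PBO 1500 mg/kg, against 1070.2, 141 and 1073 in the PBO control, and 402, 219 and 537 at DAM 2000 mg/kg, against 82.3, 54.9 and 55.1 in the DAM control. It rose in the DAM study by 2.26 ± 0.29 and had overlapping groups in the PBO study. Its difference, -3.68 ± 1.04 (adjusted p = 0.0472), was lost without PBO 1500 replicate 3, PBO control replicate 1 or 3, DAM 2000 replicate 1, 2 or 3, or DAM control replicate 1, 2 or 3 (adjusted p of 0.0529 to 0.119), and its second probe set missed the threshold (-1.17, adjusted p = 0.605).

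**Figure D3:**
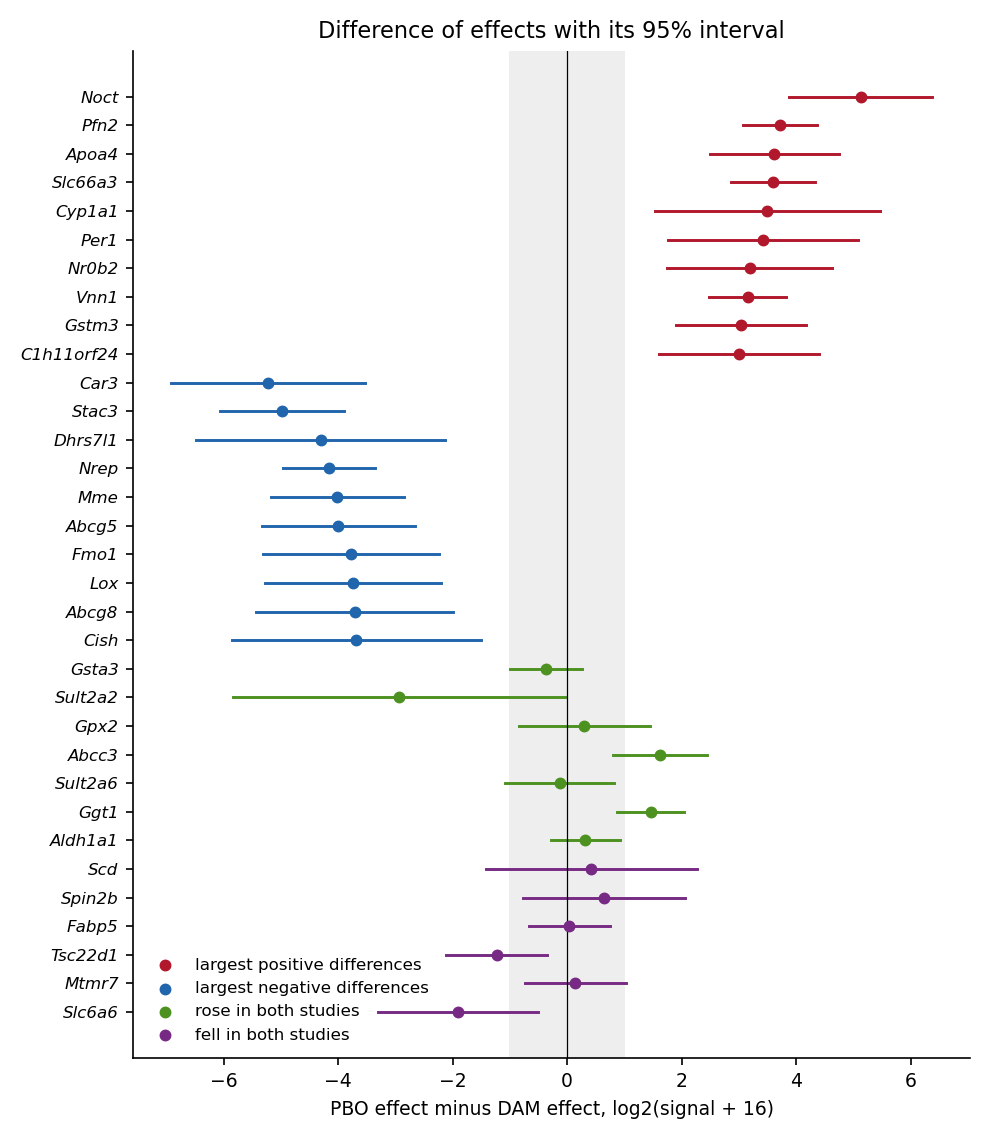
Difference of effects (PBO change minus DAM change, log2(signal + 16)) with its 95% interval from limma for the genes named for the largest differences and for the shared changes; the grey band marks 1 log2 unit on either side of 0. Fabp5 and Aldh1a1 have intervals inside the band, that of Gsta3 reaches its lower edge, while Noct at 5.12 and Car3 at -5.22 lie at the ends.

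Of the 19 genes changed in opposite ways, 6 were higher at PBO 1500 mg/kg and lower at DAM 2000 mg/kg, and 13 the reverse. Cyp4a1, the fatty acid hydroxylase most used as a PPARalpha marker in rats, had 14358, 10506 and 14151 at PBO 1500 mg/kg, against 6151, 4571 and 6927 in the PBO control, and 3097, 3511 and 4046 at DAM 2000 mg/kg, against 6362, 6993 and 6762 in the DAM control. The controls of the studies had like levels and the dosed groups lay on opposite sides of them, with changes of 1.15 ± 0.23 and -0.92 ± 0.10 and a difference of 2.07 ± 0.28 (adjusted p = 0.000259). Tmed3, a cargo receptor between endoplasmic reticulum and Golgi, had 953, 1392 and 1728 at PBO 1500 mg/kg, against 712, 443 and 468 in the PBO control, and 499, 647 and 728 at DAM 2000 mg/kg, against 912, 1027 and 989 in the DAM control. Its changes were 1.29 ± 0.26 and -0.65 ± 0.13. Mme, the membrane peptidase neprilysin, had 69, 16.3 and 38.6 at PBO 1500 mg/kg, against 247, 106 and 176 in the PBO control, and 939.6, 751 and 908 at DAM 2000 mg/kg, against 87, 216 and 261 in the DAM control. Its changes of -1.79 ± 0.41 and 2.23 ± 0.31 gave a difference of -4.01 ± 0.56 (adjusted p = 0.00032), and its fall in the PBO study was lost without PBO control replicate 1 (adjusted p = 0.0511).

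For Dusp6, Slc25a23, Plaat3, H1f2, Ifrd1 and Rell1 the PBO call depended on single arrays. Dusp6, the phosphatase of ERK kinases, had 1495, 1382 and 1176 at PBO 1500 mg/kg, against 2889, 1861 and 4386 in the PBO control, and 985, 1030.4 and 1133 at DAM 2000 mg/kg, against 858, 616 and 592 in the DAM control. Its PBO change of -1.08 ± 0.31 was lost without PBO 1500 replicate 2 or 3 or PBO control replicate 1 or 3 (adjusted p of 0.0516 to 0.127), its DAM change was 0.61 ± 0.14, and the difference was -1.70 ± 0.38. The other two probe sets of Dusp6 had differences of the same sign that did not pass. Slc25a23, a mitochondrial carrier of ATP-magnesium and phosphate, had a PBO change of -1.37 ± 0.44, lost without PBO control replicate 1, 2 or 3 (adjusted p of 0.0983 to 0.122), a DAM change of 0.87 ± 0.12 and a difference of -2.24 ± 0.51. Its PBO change was -0.62 and its difference -1.49 without PBO 1500 replicate 3, and its second probe set had a difference of -0.28 that did not pass.

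The lipid-modifying enzyme Plaat3 had a PBO change of -1.08 ± 0.34, lost without PBO 1500 replicate 1 or 3 or PBO control replicate 1, 2 or 3 (adjusted p of 0.0508 to 0.146), and a DAM change of 0.75 ± 0.11. The PBO change was -0.62 without PBO 1500 replicate 3. The linker histone H1f2 had -0.66 ± 0.20 in the PBO study, lost without PBO 1500 replicate 1 or 3 or PBO control replicate 1, 2 or 3 (adjusted p of 0.06 to 0.141) and at -0.41 without PBO 1500 replicate 3, and 0.76 ± 0.13 in the DAM study. For both genes the PBO groups overlapped. Ifrd1 had 1640.0, 1606 and 12999 at PBO 1500 mg/kg, against 661, 1266 and 716 in the PBO control. Its PBO change of 1.93 ± 0.59 was 0.93 without PBO 1500 replicate 3 and was lost without PBO control replicate 1, 2 or 3 (adjusted p of 0.0503 to 0.123). The difference of Ifrd1, 2.69 ± 0.69, was 1.70 without PBO 1500 replicate 3 and was lost without PBO control replicate 1 or 3, DAM 2000 replicate 1, 2 or 3, or DAM control replicate 1, 2 or 3 (adjusted p of 0.0547 to 0.07). Rell1 had 1.11 ± 0.33 in the PBO study, 0.61 without PBO 1500 replicate 3 and lost without PBO control replicate 1, 2 or 3 (adjusted p of 0.0731 to 0.103), and -0.47 ± 0.12 in the DAM study, lost without DAM 2000 replicate 1 or 2 or DAM control replicate 2 or 3 (adjusted p of 0.0563 to 0.087). Its difference of 1.58 ± 0.38 was lost without PBO control replicate 3, DAM 2000 replicate 1, or DAM control replicate 2 or 3 (adjusted p of 0.0505 to 0.0565).

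**Figure D4:**
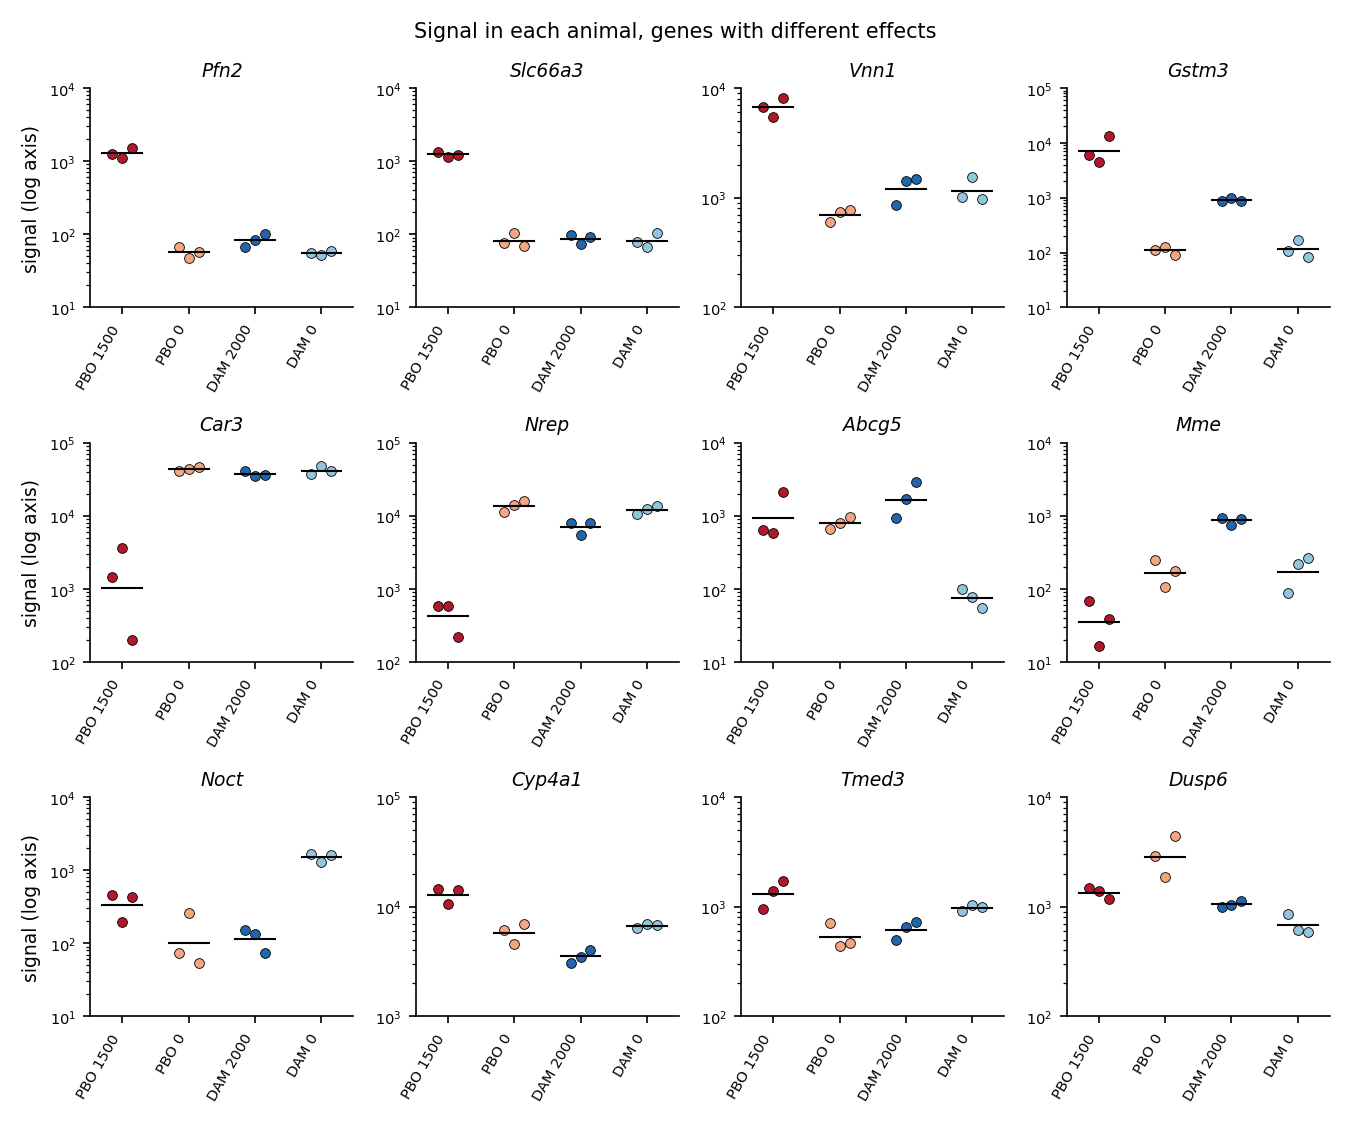
Deposited signal (log axis) of 12 genes with different effects in each animal of the 4 groups compared; horizontal bars are the means of the log values. Pfn2, Slc66a3, Vnn1 and Gstm3 stand highest at PBO 1500 mg/kg, Car3 and Nrep lowest there, Abcg5 is lowest in the DAM control, Noct is highest in the DAM control, and Mme, Cyp4a1, Tmed3 and Dusp6 move in opposite directions in the 2 studies.

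Targets of CAR and PXR rose in both studies. Of 18 measured members 12 rose at PBO 1500 mg/kg and 14 at DAM 2000 mg/kg, none fell, and 11 were shared. The median change was 1.16 in the PBO study and 0.88 in the DAM study, against -0.08 and -0.04 over all probe sets tested. The difference passed toward PBO for 5 members and toward DAM for 1. Counts of this and every later list are to be read beside the shares of all probe sets tested. These were 8.07% higher and 9.3% lower at PBO 1500 mg/kg, and 6.2% higher and 6.12% lower at DAM 2000 mg/kg. For the difference they were 2.14% toward PBO and 2.77% toward DAM. Ces2c, a carboxylesterase, had 25211, 25768 and 18262 at PBO 1500 mg/kg, against 878, 548 and 885 in the PBO control, and 6793, 7077 and 4794 at DAM 2000 mg/kg, against 591, 791 and 671 in the DAM control. Its difference was 1.75 ± 0.27 (adjusted p = 0.00112). The steroid hydroxylase Cyp3a18 was the 1 member toward DAM, with 0.25 ± 0.10 in the PBO study without a call (a called 0.34 without PBO 1500 replicate 3, adjusted p = 0.0165), 0.996 ± 0.07 in the DAM study and a difference of -0.75 ± 0.12 (adjusted p = 0.00159). The main inducible P450 Cyp3a23-3a1 rose by 0.74 ± 0.10 and 0.63 ± 0.09, with an interval of the difference of -0.17 to 0.40. The uptake transporter Slco1a4 rose by 1.01 ± 0.11 and 0.95 ± 0.08, with an interval of -0.23 to 0.36. Gadd45b, a stress gene that CAR also raises, rose by 3.18 ± 1.01 in the PBO study and 1.52 ± 0.33 in the DAM study. Its PBO call was lost without PBO 1500 replicate 3 or PBO control replicate 1, 2 or 3 (adjusted p of 0.0657 to 0.153), and the change was 1.60 without PBO 1500 replicate 3.

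Of 5 measured AhR targets Cyp1a1 and Nqo1 rose in both studies. Without PBO 1500 replicate 3 the PBO rises numbered 3, with Cyp1a2 the added one, and the difference passed for none toward PBO and for Tiparp toward DAM, in place of Cyp1a1 toward PBO and none toward DAM. Nqo1, a quinone reductase that NRF2 also raises, rose by 1.62 ± 0.24 and 1.26 ± 0.11, with an interval of the difference of -0.25 to 0.97. Cyp1a2, the constitutive Cyp1 gene of liver, had 37729.8, 29707 and 14711 at PBO 1500 mg/kg, against 19276, 18669 and 17209.8 in the PBO control. Its changes of 0.47 ± 0.27 and 0.14 ± 0.15 passed in neither study, and the PBO change was 0.87 and passed without PBO 1500 replicate 3 (adjusted p = 0.00312).

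NRF2 targets rose in both studies. Of 23 measured members 17 rose at PBO 1500 mg/kg and 12 at DAM 2000 mg/kg, none fell and 11 were shared. The median change was 1.02 in the PBO study and 0.44 in the DAM study, and all 6 called differences lay toward PBO. Gsr, the glutathione reductase, had 2466, 2357 and 3641 at PBO 1500 mg/kg, against 478, 464 and 573 in the PBO control, and 576, 746 and 651 at DAM 2000 mg/kg, against 373, 353 and 342 in the DAM control, a difference of 1.57 ± 0.21 (adjusted p = 0.000258). The NADPH-forming malic enzyme Me1 had a difference of 1.68 ± 0.21 (adjusted p = 9.21e-05), and the carbonyl reductase Cbr1 one of 1.97 ± 0.32 (adjusted p = 0.00156), with no call in the DAM study (0.03 ± 0.15). Among 20 glutathione S-transferases 11 rose and 3 fell in the PBO study, 9 rose and 1 fell in the DAM study, and 9 were shared. The membrane-bound Mgst2 rose by 1.26 ± 0.11 and 0.70 ± 0.07 (difference 0.56 ± 0.13, adjusted p = 0.014), and Gstm7 fell in the PBO study (-0.91 ± 0.12) and had -0.16 ± 0.09 in the DAM study without a call, with a difference of -0.75 ± 0.15 (adjusted p = 0.00718). The placental transferase Gstp1, a marker of rat liver foci, passed in neither study (0.88 ± 0.40 and 0.34 ± 0.20). Of 11 measured foci markers 5 rose in each study, the same 5, and 1 fell at DAM 2000 mg/kg. Of all probe sets tested 8.07% rose at PBO 1500 mg/kg and 6.2% at DAM 2000 mg/kg. Among the foci markers 2 had a called difference, Ggt1 and Abcc3. Many of these genes stand on more than 1 list, so the counts are not independent.

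Among 14 genes of glucuronidation and sulfation 6 rose and 5 fell in the PBO study, 7 rose and 3 fell in the DAM study, and 9 were shared. The transferase Ugt2b1 rose by 3.002 ± 0.20 and 1.89 ± 0.17. Its difference of 1.12 ± 0.29 was lost without PBO control replicate 1 or 2, DAM 2000 replicate 1, 2 or 3, or DAM control replicate 1 or 2 (adjusted p of 0.054 to 0.0839). The sulfotransferase Sult1c3 had 5861, 6249 and 2175 at PBO 1500 mg/kg, against 22353, 21294 and 23439 in the PBO control, and 19570.2, 15480.1 and 16084 at DAM 2000 mg/kg, against 19256, 21713 and 21631 in the DAM control, a difference of -2.07 ± 0.36 (adjusted p = 0.00227). Papss2, which makes the sulfate donor, fell with changes of -1.07 ± 0.11 and -0.59 ± 0.07, and its difference of -0.48 was lost without PBO control replicate 1 or 2, DAM 2000 replicate 1 or 3, or DAM control replicate 2 or 3 (adjusted p of 0.0519 to 0.0743). The second probe set of Papss2 had a difference of -0.21 that did not pass.

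Over 34 measured PPARalpha targets and fatty acid oxidation genes, 19 rose with no fall at PBO 1500 mg/kg (18 and 2 without PBO 1500 replicate 3), against 4 that rose and 4 that fell at DAM 2000 mg/kg, with 3 shared and 2 opposite. The median change was 0.68 in the PBO study (0.51 without PBO 1500 replicate 3) and 0.11 in the DAM study. All 9 called differences lay toward PBO, where 2.14% of all probe sets tested were called. Ehhadh, the peroxisomal bifunctional enzyme, had 25584, 13497 and 19169 at PBO 1500 mg/kg, against 5685, 3717 and 5094 in the PBO control, and 6507, 6203 and 7294 at DAM 2000 mg/kg, against 7563, 10138 and 9044 in the DAM control. It rose in the PBO study by 1.98 ± 0.23 and had -0.41 ± 0.12 in the DAM study, a fall whose call was lost without DAM 2000 replicate 1 or 2 or DAM control replicate 2 or 3 (adjusted p of 0.095 to 0.126). The difference was 2.39 ± 0.28 (adjusted p = 5.87e-05). Hadhb, the beta subunit of the mitochondrial trifunctional protein, had 1.05 ± 0.09 in the PBO study and 0.09 ± 0.07 in the DAM study, a difference of 0.96 ± 0.12 (adjusted p = 8.73e-05). The dienoyl-CoA reductase Decr1 and the thiolase Acaa2 rose in both studies, Decr1 by 0.87 ± 0.10 and 0.59 ± 0.08 and Acaa2 by 0.56 ± 0.13 and 0.40 ± 0.08.

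**Figure D5:**
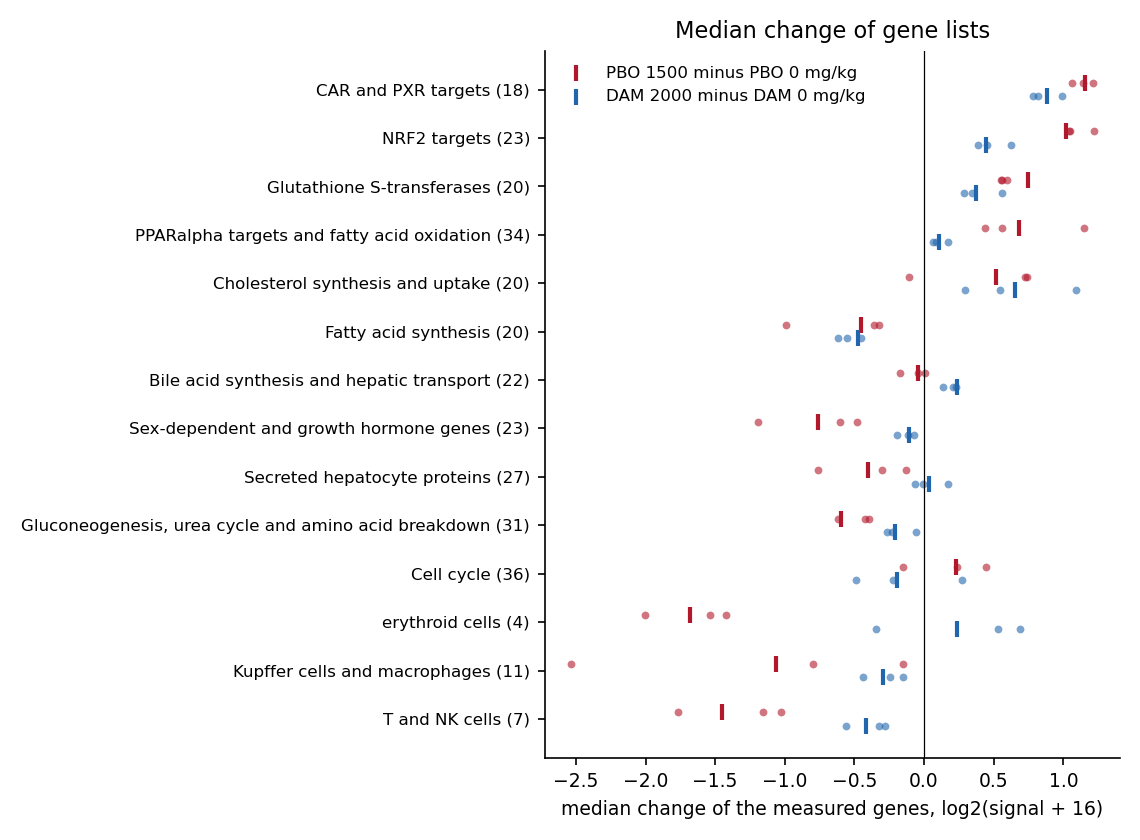
Median change of the measured genes of 14 lists (number in brackets) at PBO 1500 mg/kg (red, upper row of each list) and DAM 2000 mg/kg (blue, lower row) in log2(signal + 16); ticks are medians of the fitted changes and points are the medians of each dosed animal against the control mean. CAR and PXR targets lie at 1.16 and 0.88, PPARalpha targets at 0.68 and 0.11, and erythroid markers at -1.68 and 0.23.

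Of 20 measured genes of cholesterol synthesis and uptake 6 rose and 1 fell at PBO 1500 mg/kg (10 and 1 without PBO 1500 replicate 3), and 13 rose and 1 fell at DAM 2000 mg/kg, with 6 shared. The squalene epoxidase Sqle had 1894, 2065 and 1901 at PBO 1500 mg/kg, against 615, 695 and 576 in the PBO control, and 984, 1712 and 2940.3 at DAM 2000 mg/kg, against 488, 302 and 370.5 in the DAM control. Its rises of 1.61 ± 0.19 and 2.12 ± 0.35 left an interval of the difference of -1.43 to 0.41, and the methyl sterol oxidase Msmo1 rose by 1.21 ± 0.24 and 1.61 ± 0.29. The 1 called difference was that of Insig1, which holds SREBP back in the endoplasmic reticulum. Insig1 fell in the DAM study (-1.07 ± 0.17) and had 0.94 ± 0.40 in the PBO study without a call, and its difference of 2.01 ± 0.49 was lost without PBO control replicate 1 or 3, DAM 2000 replicate 1 or 2, or DAM control replicate 2 (adjusted p of 0.0525 to 0.0571).

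Of 20 measured fatty acid synthesis genes 7 fell at PBO 1500 mg/kg and 10 at DAM 2000 mg/kg, with 2 rising in each and 7 shared, Scd and Fabp5 among them. The difference passed for 2 members toward PBO and 1 toward DAM (4 and 2 without PBO 1500 replicate 3). Acaca, the first enzyme of fatty acid synthesis, had 2917, 2464 and 1484 at PBO 1500 mg/kg, against 2006, 2161 and 2452 in the PBO control, and 1855, 1457 and 1630.3 at DAM 2000 mg/kg, against 3034, 4132 and 3978 in the DAM control. It fell in the DAM study (-1.16 ± 0.14) with overlapping groups in the PBO study, a difference of 1.16 ± 0.26 (adjusted p = 0.0139). The second probe set of Acaca had a difference of 0.66 that did not pass. The elongase Elovl5 fell with changes of -1.13 ± 0.17 and -0.44 ± 0.07. Its difference of -0.69 was lost without PBO 1500 replicate 2, PBO control replicate 1, 2 or 3, DAM 2000 replicate 1, 2 or 3, or DAM control replicate 1, 2 or 3 (adjusted p of 0.0591 to 0.114), and its second probe set had a difference of 0.06.

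Among 22 genes of bile acid synthesis and hepatic transport 4 rose and 5 fell in the PBO study, 9 rose and 6 fell in the DAM study and 5 were shared. The difference passed toward PBO for 2 members and toward DAM for 6. Slc10a1, the sodium-dependent bile acid importer, had 13126, 16446 and 10473 at PBO 1500 mg/kg, against 27003, 27117 and 26239 in the PBO control, and 23081, 21720.3 and 23345 at DAM 2000 mg/kg, against 20767, 22263 and 22201 in the DAM control, a difference of -1.09 ± 0.16 (adjusted p = 0.000522). The organic anion importer Slco2b1 had a difference of -0.74 ± 0.14 (adjusted p = 0.00473), also from a fall in the PBO study (-0.66 ± 0.12). The second probe set of Slco2b1 had a difference of -0.34 that did not pass. Cyp7a1, the rate-limiting enzyme of bile acid synthesis, had 2405, 1296 and 294 at PBO 1500 mg/kg, against 1235, 4135 and 1261 in the PBO control, and 1009, 498 and 1073 at DAM 2000 mg/kg, against 3868, 3475 and 7911 in the DAM control. It fell in the DAM study (-2.52 ± 0.35), overlapped in the PBO study (-0.92 ± 0.76), and the interval of its difference was wide, -0.39 to 3.59.

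Of 23 measured genes that differ between male and female rats or depend on growth hormone, 9 fell and 1 rose at PBO 1500 mg/kg, against 6 that fell and 5 that rose at DAM 2000 mg/kg, and all 5 called differences lay toward DAM. The median change was -0.76 in the PBO study (-0.33 without PBO 1500 replicate 3) and -0.11 in the DAM study. Cyp2c11, the main steroid hydroxylase of male rats, had 5366, 7461 and 14123 at PBO 1500 mg/kg, against 35836, 39902 and 43585 in the PBO control, and 29006, 21436 and 27946 at DAM 2000 mg/kg, against 29021, 37254 and 33377 in the DAM control. Its difference was -1.91 ± 0.42 (adjusted p = 0.0118). The growth hormone receptor Ghr had changes of -2.18 ± 0.41 and -0.17 ± 0.07 and a difference of -2.01 ± 0.47 (adjusted p = 0.0174), which was -1.32 without PBO 1500 replicate 3. Its second probe set had a difference of -0.72 that did not pass. Igfbp3, a carrier of insulin-like growth factors, fell in both studies and had a difference of -1.98 ± 0.41 (adjusted p = 0.00845). The urinary protein gene Obp3 fell in both, with -1.33 ± 0.30 and -1.88 ± 0.18, and its difference did not pass (adjusted p = 0.487).

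Of 27 genes of secreted hepatocyte proteins 11 fell and none rose in the PBO study, against 2 that fell and 1 that rose in the DAM study. The difference passed toward DAM for 7 members and toward PBO for Apoa4 alone. Apoa5, a regulator of plasma triglyceride, had 6766, 8586 and 8462 at PBO 1500 mg/kg, against 17417, 16294 and 20455 in the PBO control, and 10794, 9628 and 10906 at DAM 2000 mg/kg, against 9268, 9571 and 9220.0 in the DAM control, a difference of -1.34 ± 0.14 (adjusted p = 1.54e-05). Apoc2, the activator of lipoprotein lipase, had a difference of -0.61 ± 0.12 (adjusted p = 0.0075), which was -0.40 after quantile normalization. C6, of the terminal complement complex, had changes of -3.35 ± 0.45 and -1.07 ± 0.21, called falls in both studies. Its difference of -2.28 ± 0.56 was lost without DAM 2000 replicate 1 or 3 or DAM control replicate 2 or 3 (adjusted p of 0.0528 to 0.0678).

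Of 11 acute phase genes 1 rose and 3 fell in the PBO study, 2 rose and 2 fell in the DAM study and 3 were shared. The 1 rise in the PBO study is near the background, where 8.07% of all probe sets tested rose. Lbp, which binds bacterial lipopolysaccharide, rose in both, by 1.44 ± 0.14 and 0.46 ± 0.10, with a difference of 0.98 ± 0.18 (adjusted p = 0.00328). The iron hormone Hamp fell with -1.96 ± 0.51, a call lost without PBO control replicate 1 or 3 (adjusted p of 0.0572 to 0.0778), and with -1.09 ± 0.24, which was -0.69 without DAM 2000 replicate 3. The protease inhibitor A2m fell with -2.82 ± 0.41 and -0.92 ± 0.22, the DAM call being lost without DAM 2000 replicate 2 or DAM control replicate 3 (adjusted p of 0.0634 to 0.0644). The difference of A2m, -1.90, was lost without PBO 1500 replicate 2 or 3, PBO control replicate 2, DAM 2000 replicate 1 or 3, or DAM control replicate 1 or 2 (adjusted p of 0.0548 to 0.11), and that of Itih3, -0.70, without PBO control replicate 3, DAM 2000 replicate 1, or DAM control replicate 1 (adjusted p of 0.0511 to 0.0592).

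Of 31 measured genes of gluconeogenesis, the urea cycle and amino acid breakdown 17 fell at PBO 1500 mg/kg and 8 at DAM 2000 mg/kg, with 5 shared. The difference passed toward DAM for 7 and toward PBO for Tat. Tat, the tyrosine aminotransferase, had 5226, 4344 and 15790.0 at PBO 1500 mg/kg, against 5078, 7328 and 3426 in the PBO control, and 776, 669 and 516 at DAM 2000 mg/kg, against 3304, 2754 and 4170.0 in the DAM control. It fell in the DAM study (-2.35 ± 0.20) and the PBO groups overlapped, a difference of 2.85 ± 0.52 (adjusted p = 0.00357). Kynu, of tryptophan breakdown, fell with changes of -1.40 ± 0.10 and -0.63 ± 0.09 and a difference of -0.77 ± 0.13 (adjusted p = 0.00214), and the glycine methyltransferase Gnmt with -2.46 ± 0.30 and -0.79 ± 0.10 and a difference of -1.67 ± 0.35 (adjusted p = 0.00937). The histidine lyase Hal fell in both, with -1.70 ± 0.25 and -1.55 ± 0.18 and an interval of the difference of -0.87 to 0.56.

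Of 8 pericentral genes 3 fell at PBO 1500 mg/kg and of 7 periportal genes 5 fell, against 2 falls in each list and 2 pericentral rises at DAM 2000 mg/kg. Cyp2e1, a pericentral P450, had -0.45 ± 0.12 in the PBO study, lost without PBO control replicate 2 or 3 (adjusted p of 0.0541 to 0.0894), and rose by 0.36 ± 0.07 in the DAM study, with a difference of -0.82 ± 0.14 (adjusted p = 0.00247). The glutamine synthetase Glul fell by 1.39 ± 0.17 in the PBO study, and its DAM change of -0.27 ± 0.08 was lost without DAM 2000 replicate 1 or 2 or DAM control replicate 1, 2 or 3 (adjusted p of 0.0651 to 0.169) and was -0.16 with median scaling. Its difference was -1.12 ± 0.20 (adjusted p = 0.00294), while its other two probe sets had PBO changes of 0.04 and -0.27 and differences of 0.17 and -0.15 that did not pass. Without PBO 1500 replicate 3 the pericentral list held 5 differences toward DAM in place of 2. The periportal urea cycle enzyme Cps1 fell in the PBO study (-0.78 ± 0.12). Its difference of -0.57 was lost without PBO 1500 replicate 3, PBO control replicate 2 or 3, DAM 2000 replicate 1 or 3, or DAM control replicate 1 or 3 (adjusted p of 0.0501 to 0.11) and was -0.37 after quantile normalization.

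Of 14 clock genes 7 fell and none rose in the DAM study, against 4 that fell and 2 that rose in the PBO study (4 and 1 without PBO 1500 replicate 3). Cry1, a repressor of the clock, fell in both with changes of -1.11 ± 0.23 and -0.79 ± 0.15. Npas2 fell with -1.28 ± 0.34, a call lost without PBO 1500 replicate 3 or PBO control replicate 1 or 2 (adjusted p of 0.0564 to 0.0743), and with -0.57 ± 0.09. The time of day at which livers were taken was not given in the sources used here.

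Of 36 cell cycle genes 3 rose at PBO 1500 mg/kg and 1 at DAM 2000 mg/kg, and none fell, while 8.07% of all probe sets rose at PBO 1500 mg/kg and 6.2% at DAM 2000 mg/kg. The PBO share of the list is near that background. Tk1, thymidine kinase, rose in both, by 1.75 ± 0.18 and 0.51 ± 0.14, with a difference of 1.24 ± 0.24 (adjusted p = 0.00529). Its DAM call was lost without DAM 2000 replicate 1 or 2 or DAM control replicate 1 (adjusted p of 0.0745 to 0.105). The second probe set of Tk1 had changes of 0.78 and 0.35 and a difference of 0.44 that did not pass (adjusted p = 0.441). Mki67 (0.08 ± 0.35 and -0.64 ± 0.42), Ccnd1 (0.55 ± 0.66 and -0.21 ± 0.14) and Cdkn1a (-0.03 ± 0.47 and 0.29 ± 0.14) passed in neither study. Of 12 p53 targets 2 rose in each study, the same 2, while 1 fell at PBO 1500 mg/kg and 2 at DAM 2000 mg/kg. Mdm2, the p53 ubiquitin ligase, rose by 1.02 ± 0.15 and 1.31 ± 0.09. Its difference of -0.28 passed without PBO 1500 replicate 3 (adjusted p = 0.0293), and its other two probe sets had differences of the other sign. Gadd45a rose by 1.55 ± 0.45, a call lost without PBO 1500 replicate 1 or 3 or PBO control replicate 2 or 3 (adjusted p of 0.0517 to 0.12), and by 0.92 ± 0.28, a call lost without DAM 2000 replicate 1 or 3 or DAM control replicate 1 or 3 (adjusted p of 0.0531 to 0.153). Its change was 1.03 without PBO 1500 replicate 3 and 0.59 without DAM 2000 replicate 3. Sesn2 fell in the DAM study (-1.49 ± 0.22), and its difference of 1.26 was lost without PBO 1500 replicate 1 or 2, PBO control replicate 1 or 2, DAM 2000 replicate 1 or 3, or DAM control replicate 2 or 3 (adjusted p of 0.0517 to 0.121).

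Of 23 endoplasmic reticulum chaperones and ATF4 targets 4 rose and 1 fell in the PBO study, 3 rose and 5 fell in the DAM study and 3 were shared. Psat1, of serine synthesis, had 646, 728 and 1608 at PBO 1500 mg/kg, against 209.8, 123 and 149.6 in the PBO control, and 1041, 2172 and 1117 at DAM 2000 mg/kg, against 262, 362 and 196 in the DAM control. It rose in both, by 2.42 ± 0.31 and 2.29 ± 0.37, with an interval of the difference of -0.99 to 1.25. The pseudokinase Trib3 rose by 2.37 ± 0.45 and 0.79 ± 0.23, and its DAM call was lost without DAM 2000 replicate 1, 2 or 3 or DAM control replicate 2 or 3 (adjusted p of 0.0521 to 0.131). Cebpb, a transcription factor of the acute response, fell in the DAM study (-0.93 ± 0.09) and had 0.74 ± 0.33 in the PBO study without a call, a difference of 1.68 ± 0.39 (adjusted p = 0.016).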

How the data were processed

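The authors deposited array intensity values (signals) calculated by MAS5 (per the submitters' processing notes) for biotin-labelled RNA of rat liver; the version and the chip's annotation build were not given in the sources used here. A few arrays limit the precision, and intensities from MAS5 are noisy at low signal. All 21 arrays were used as deposited. From these intensities log2(signal + 16) was computed, 57 control probe sets were left out, and 18625 of the remaining probe sets with a mean above the 40th percentile were tested. Of all probe sets 20826 had 1 gene symbol, 436 several and 9780 none; 20758 symbols were updated through Entrez identifiers, and the probe set with the highest mean stood for its gene.

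Changes were tested with limma 3.58.1 in R 4.3.3 (lmFit, eBayes with an intensity trend, Benjamini-Hochberg adjustment, threshold 0.05). The difference of effects came from 1 fit of 7 groups over 21 arrays, the PBO change from the 12 arrays of its study and the DAM change from the 9 of its study. Shared means called in each study's own fit with the same sign. Figures were drawn with matplotlib 3.10.9. The procedure was tested on simulated data with the same spread in all groups, so that test does not cover the unequal spread of these arrays.

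Genes were named by rule: the 10 with the largest called difference in each direction, the 8 shared rises and 8 shared falls with the largest smaller effect, the 5 opposite genes in each direction with the largest smaller effect, up to 3 differing and 2 shared genes of each of 20 lists, and a set of known genes. Members, lists and markers were chosen with earlier results of these data known. The labels state no pairing of animals by replicate number. Deviations of same-numbered arrays from their group means had correlations of 0.01, 0.01 and -0.03 in the PBO study. In the DAM study these were 0.04, 0.07 and 0.11. With 3 arrays per group they cannot show whether animals were paired. The alternatives were the pseudocount, the filter, normalization, the variance model, array weights, the arrays in the fit and single arrays left out. The list counts and uncalled gene changes without PBO 1500 replicate 3 were chosen after seeing the data. No duplicate arrays were found (highest correlation 0.984).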

Additional observations from a re-analysis of the deposited data

Results flagged for a closer look

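For 12 named genes the changes in the PBO and DAM studies were called in opposite directions, and the difference passed as well. It passed for all 26 probe sets called in opposite ways. It rests on the same arrays and is not separate support. At least 1 of these calls was lost when a single array was left out, for all of the 12 genes but Cyp4a1 and Tmed3. Differences (PBO minus DAM, log2) were 5.12 for Noct, 2.07 for Cyp4a1, 2.69 for Ifrd1, 1.94 for Tmed3, 1.58 for Rell1 and 2.39 for Ehhadh. They were -4.01 for Mme, -2.24 for Slc25a23, -1.83 for Plaat3, -1.42 for H1f2, -1.70 for Dusp6 and -0.82 for Cyp2e1. The compound is joined with strain, route, duration, dose and preservation, whose parts cannot be told apart.

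Probe sets without a single gene symbol stood outside the gene-level description, and the difference passed for 149 of 4257 tested, 46 toward PBO and 103 toward DAM. Of all probe sets tested it passed for 2.14% toward PBO and 2.77% toward DAM, and neither count of unnamed probe sets exceeds these shares. The unnamed probe set with the largest difference toward PBO had 32009.9, 32609.5 and 26591 at PBO 1500 mg/kg against 632, 350.5 and 2598 in the PBO control, and 147, 102 and 52.3 at DAM 2000 mg/kg against 21.5, 9.64 and 32.1 in the DAM control, a difference of 3.54. The one with the largest difference toward DAM had 1104, 936 and 2924 at PBO 1500 mg/kg against 1344, 607 and 2186 in the PBO control, and 2326, 1482 and 1698 at DAM 2000 mg/kg against 16.2, 145 and 192 in the DAM control, a difference of -3.90.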

How the results depend on the processing

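Without a filter 15 probe sets changed in opposite ways. Without the intensity trend the counts were 1472 for DAM, 615 shared and 8 opposite. With only the 12 arrays compared they were 327 differences, 1575 for PBO, 637 shared and 12 opposite. With 1 fit over both studies they were 4948 for PBO, 868 for DAM, 593 shared and 14 opposite. Leaving out single arrays gave 500 to 1425 differences, 2046 to 3334 PBO calls, 1502 to 1885 DAM calls, 748 to 1031 shared and 15 to 35 opposite. With array weights per dose group, which let the spread differ between groups, they were 726 differences, 2443 for PBO, 2177 for DAM, 875 shared and 19 opposite. The replicate block gave 726 differences, 3004 PBO calls, 2038 DAM calls, 941 shared and 21 opposite, but the labels state no pairing by replicate number. The causes were not tested.

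Differences that did not pass changed sign. Gsta3 had 0.066 with a pseudocount of 64, and Mtmr7 -0.16 after quantile normalization. Leaving out single arrays moved the differences over -0.058 to 0.53 for Gpx2, -0.41 to 0.31 for Sult2a6, -0.25 to 0.52 for Mtmr7, -0.27 to 0.46 for Psat1, -0.77 to 0.074 for Cdkn1a and -0.18 to 0.83 for Scd. They ran over -0.29 to 0.26 for Fabp5, -0.49 to 0.10 for Hal, -0.016 to 0.26 for Acaa2, -0.033 to 0.14 for Slco1a4, -0.067 to 0.95 for Gstp1 and -0.25 to 1.58 for Ccnd1. The fall of Mme in the PBO study was -1.18 and that of Spin2b in the DAM study -2.27 with a pseudocount of 64. The difference of Cyp1a1 missed the threshold without the trend (adjusted p = 0.0674) and with array weights (0.0836). The B cell list had no gene left above the 60th percentile.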
